A study of Mus musculus with 6 samples.

Results

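The comparison described here is the upper step of a sort by CX3CR1 level in mouse skin: dermal macrophages called CX3CR1high (bright in the sample titles) against those called CX3CR1int. Its members are 4 of the 6 arrays of the series, 2 per subset, chosen by their titles; the remaining 2 arrays hold CX3CR1low macrophages and entered the fit so that the 3 subsets shared 1 estimate of the spread. All cells came from C57Bl/6 mice of the genotype Cx3cr1+/gfp, in which a green fluorescent protein gene stands in place of 1 copy of Cx3cr1, so every group carried the same single working copy of the receptor gene. The mice were 2 weeks old and kept in a specific pathogen-free facility without ear clipping. Ear skin was digested, macrophages were sorted by flow cytometry, each sample was a pool of 4 mice, and the 2 samples of a subset came from 2 independent litters. No surface markers or gates beyond the CX3CR1 level are given in the sources used here. RNA was amplified with a NuGEN whole-transcriptome kit and hybridised to a 1-colour Affymetrix array.

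CX3CR1 is the receptor for the membrane-bound chemokine CX3CL1, which neurons and epithelial and endothelial cells carry. Monocytes and many tissue macrophages express it, microglia of the brain most strongly, and in skin it marks macrophages that lie along nerves among others. Macrophages of the dermis that express the lectins of the CD209 family, MRC1 or LYVE1 are known as residents around vessels, and Ly6c2 marks the inflammatory monocytes from which part of the dermal pool is renewed.

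Values are log2 RMA signals as deposited, where a difference of 1 is a 2-fold change. A gene was tested if its mean over the 6 arrays lay at or above the 30th percentile of all genes, a dim level of 4.34, which left 15529 of 22180 genes. A gene was called if its Benjamini-Hochberg adjusted p in limma, with the replicate number as a block, was below 0.05. If the lower subset's mean was itself dim, its fold is written as at least the ratio to the dim level. Signals of different genes are not on 1 scale, since each probe set binds with its own strength, so only differences of the same gene between samples are compared.

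Between CX3CR1int and CX3CR1high macrophages 47 genes were called, 0.303% of those tested. Of these, 22 were higher in CX3CR1high cells (0.142%) and 25 were lower (0.161%). The rises were led by Cx3cr1 itself, the junctional adhesion molecule F11r, the collagenase Mmp13 and the inhibitory lectin Clec12a. The falls were led by the monocyte antigen Ly6c2, the lectins Cd209d and Cd209g, the mast cell protease Cpa3 and the secreted protein Retnla. A total of 45 of the 47 differed at least 2-fold and 10 at least 4-fold. In 46 of the 47 the CX3CR1high and CX3CR1int samples did not overlap, the exception being Ccl6, a chemokine; over all genes tested such separation was seen in 36.8%, so it sets few genes apart. All 47 moved the same way in both pairs of same-numbered samples. This largely follows from the choice, since the genes were called on these same pairs. The share of all tested genes with such agreement was not counted. Of all tested genes, 93% had a 95% interval within 1 log2 unit of no difference.

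These calls rest on 6 arrays and 2 residual degrees of freedom. Leaving out any 1 of the 6 arrays, CX3CR1low ones included, left 1 residual degree of freedom and no gene called by limma; the 47 differences kept their direction each time. With the 4 CX3CR1high and CX3CR1int arrays alone no gene was called, and without the block 22 were called, all of them among the 47: the rises of Cx3cr1, F11r, Mmp13, Clec12a, Itga6, Ndc80, Rab26os, Cd69, Snhg5, Bcl2a1a, Mir677 and Ddx5 and the falls of Ly6c2, Cd209d, Cd209g, Cpa3, Retnla, C4b, Gfra2, Cd55, Mir1898 and Dnm1. The other 25 calls need the block. The unadjusted p was below 0.05 for 1490 genes, 9.59% of those tested. Samples of the same number were treated as a pair, the first or the second. The labels do not tie these numbers to the litters. There are 2 pooled samples per subset. With the block, p-values measure the spread of these pools that is left once the shift shared by same-numbered samples is removed, moderated across genes by limma. In sorted bulk samples fewer cells of a type and less RNA per cell cannot be told apart.

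**Figure D1:**
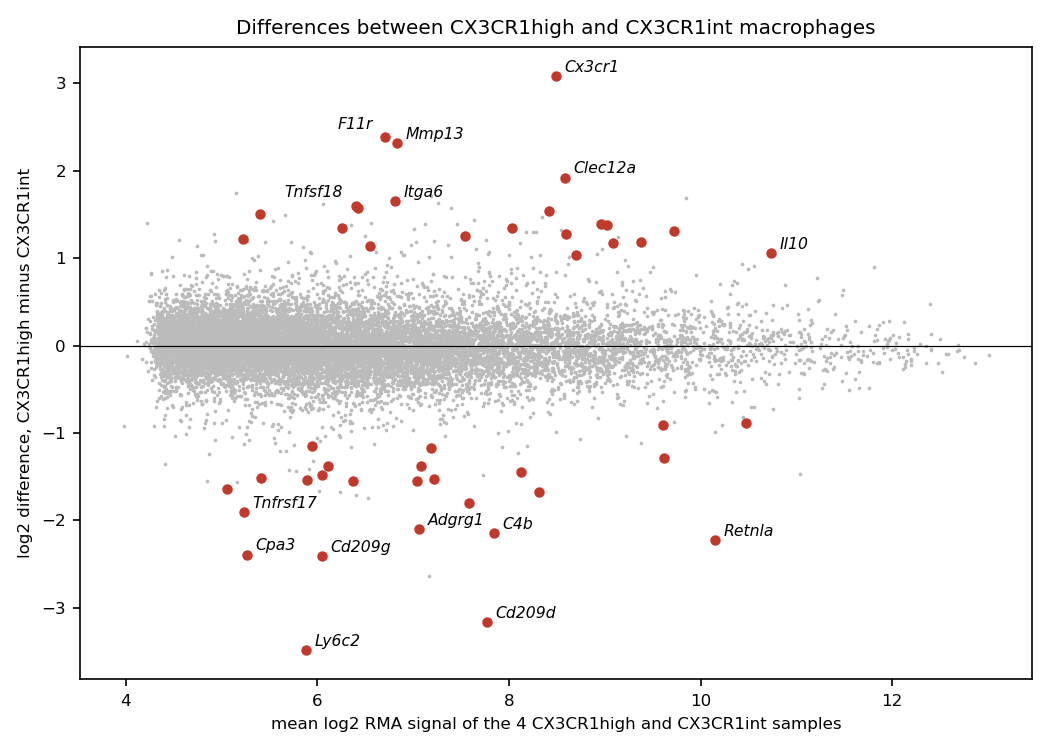
Difference between the subsets (log2, CX3CR1high minus CX3CR1int, vertical axis) against the mean log2 RMA signal of the 4 samples (horizontal axis), 1 point per tested gene, with the 47 called genes in red. Most of the 15529 points lie within 1 log2 unit of 0, and Cx3cr1 at 3.09 and Ly6c2 at -3.49 mark the upper and the lower end.

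The bases before the start of 6 called genes are shown, chosen among the larger rises and falls because their sequences differ in the motifs they hold. Cd209d and Cpa3, whose falls were larger than that of Retnla, also had a window and are not shown. The sequences are the 250 bases before the RefSeq start of each gene (build GRCm38.p6), read 5′ to 3′ along the gene's strand. Capitals mark matches on either strand. The AP-1 motif was searched as TGANTCA. For PU.1, a transcription factor that macrophages need, the core letters were AGGAAGT. The box bound by the TATA-binding protein was searched as TATAAA. These motifs and genes were chosen after the sequences had been seen.
Cx3cr1, chr9:120068297-120068546, minus strand: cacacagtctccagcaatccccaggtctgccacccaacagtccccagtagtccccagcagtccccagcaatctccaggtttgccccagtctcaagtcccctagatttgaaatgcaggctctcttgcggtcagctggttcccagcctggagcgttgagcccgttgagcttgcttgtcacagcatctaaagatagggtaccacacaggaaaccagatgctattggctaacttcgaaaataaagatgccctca
Mmp13, chr9:7272264-7272513, plus strand: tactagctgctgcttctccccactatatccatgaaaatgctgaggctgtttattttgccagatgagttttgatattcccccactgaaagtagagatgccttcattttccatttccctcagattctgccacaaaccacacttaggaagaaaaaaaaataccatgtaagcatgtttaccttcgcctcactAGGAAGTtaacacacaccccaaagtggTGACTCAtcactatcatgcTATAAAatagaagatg
F11r, chr1:171437311-171437560, plus strand: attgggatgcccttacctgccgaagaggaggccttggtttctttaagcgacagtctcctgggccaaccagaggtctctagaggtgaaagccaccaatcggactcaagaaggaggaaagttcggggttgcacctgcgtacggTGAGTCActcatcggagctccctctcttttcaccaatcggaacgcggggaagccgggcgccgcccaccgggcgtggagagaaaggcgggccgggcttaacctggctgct
Retnla, chr16:48842359-48842608, plus strand: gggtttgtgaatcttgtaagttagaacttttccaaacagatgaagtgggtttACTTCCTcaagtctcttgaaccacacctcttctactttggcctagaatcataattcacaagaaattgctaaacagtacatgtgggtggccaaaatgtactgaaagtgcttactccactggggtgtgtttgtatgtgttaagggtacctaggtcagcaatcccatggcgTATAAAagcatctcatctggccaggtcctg
Cd209g, chr8:4134486-4134735, plus strand: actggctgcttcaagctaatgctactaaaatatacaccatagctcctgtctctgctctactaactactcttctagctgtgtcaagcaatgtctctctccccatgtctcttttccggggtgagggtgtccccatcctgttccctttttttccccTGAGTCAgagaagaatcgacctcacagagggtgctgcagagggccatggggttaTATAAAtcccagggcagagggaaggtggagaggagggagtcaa
Ly6c2, chr15:75111972-75112221, minus strand: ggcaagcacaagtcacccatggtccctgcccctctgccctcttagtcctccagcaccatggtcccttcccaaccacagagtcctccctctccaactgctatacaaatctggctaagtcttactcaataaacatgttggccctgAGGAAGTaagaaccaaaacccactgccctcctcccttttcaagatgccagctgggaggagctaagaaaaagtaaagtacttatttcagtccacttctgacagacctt

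The Cx3cr1 window held none of the 3 motifs. Mmp13 held all 3, with the AP-1 match 35 to 29 bases before the start, the PU.1 core 62 to 56 and the TATA box 16 to 11 bases before it. F11r held an AP-1 match 109 to 103 bases before the start, and Cd209g one 97 to 91 bases before it beside a TATA box at 43 to 38. In Retnla a TATA box lay 30 to 25 bases before the start and the PU.1 core, on the other strand, 198 to 192 bases before it; Ly6c2 held the PU.1 core 107 to 101 bases before the start. No match of 1 motif overlapped another in these windows.

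A window was held for 15 of the 22 genes called higher and 20 of the 25 called lower. AP-1 matches stood in 5 of the 15 (33.3%: Mmp13, Clec12a, F11r, Ctla2b and Bcl2a1a) and in 5 of the 20 (25.0%: Gstp1, Cd209g, Ifitm3, Ifi209 and Ms4a8a), against 630 of 12055 tested genes with a window (5.23%). Among the 567 genes of the macrophage, pathway and marker lists used below, the share was 8.99%. The PU.1 core stood in 6 of 15 (40.0%) and 5 of 20 (25.0%), against 7.58% of all and 13.4% of list genes. TATA boxes were found in 6 of 15 (40.0%) and 6 of 20, against 7.84% and 13.6%. Each motif was thus found among the rises and the falls alike, and a match of letters does not show that a factor binds there. The motifs were chosen after sequences of called genes counted here had been seen. The shares of the called genes are therefore no test of an excess over all genes.

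Both microRNA genes that were called are shown with their mature RNAs (RefSeq, GRCm38.p6), the seed at bases 2 to 8 in capitals. Mir677 rose and Mir1898 fell.
miR-677-5p, chr10:128085291-128085312, plus strand: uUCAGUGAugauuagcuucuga
miR-677-3p, chr10:128085335-128085360, plus strand: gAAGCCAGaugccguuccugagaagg
miR-1898, chr15:12171502-12171523, plus strand: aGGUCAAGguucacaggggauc
The 3 seeds differ from one another, and 0 other mature mouse microRNAs of the table shared each of them.

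Mir677 read 4.65 and 4.57 in CX3CR1int cells against 5.71 and 5.95 in CX3CR1high cells, a rise of 1.22 (SE 0.18, limma with Benjamini-Hochberg, adjusted p = 0.0353). Mir1898 read 6.92 and 6.66 against 5.39 and 5.23, a difference of -1.48 (SE 0.19, adjusted p = 0.0254). The samples of the subsets did not overlap for either. The array measures the transcript at each locus and does not tell a mature microRNA from its precursor. Over all 179 microRNA genes tested the median difference was 0.04.

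Cx3cr1, on which the cells were sorted, read 7.05 and 6.84 in CX3CR1int cells against 10.55 and 9.51 in CX3CR1high cells. Both CX3CR1high values lay above all others, and the difference of 3.09 (SE 0.41) was an 8.49-fold rise (limma, adjusted p = 0.0255). In the CX3CR1low samples Cx3cr1 read 5.87 and 7.01, so the CX3CR1low and CX3CR1int samples overlapped. The sorted gene thus followed the labels over the upper step in both pairs. Leaving out 1 array gave differences from 2.33 to 3.84.

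The labelled cell type was checked by its markers. The 20 tested of 21 core macrophage genes included none called, 18 of their 95% intervals lay within 1 log2 unit of 0, and their median difference was -0.02. Csf1r, the receptor for the macrophage growth factor CSF1, read 11.42 and 11.28 in CX3CR1int cells against 11.29 and 11.16 in CX3CR1high cells. Adgre1, an adhesion receptor that marks mouse macrophages, read 10.93 and 10.95 against 10.63 and 10.85. The interval of the difference reached from -0.40 to 0.15 for Csf1r and from -0.50 to 0.10 for Adgre1. Cd163, a scavenger receptor for haemoglobin, had the lowest difference of the list at -0.82 (adjusted p = 0.0771).

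**Figure D2:**
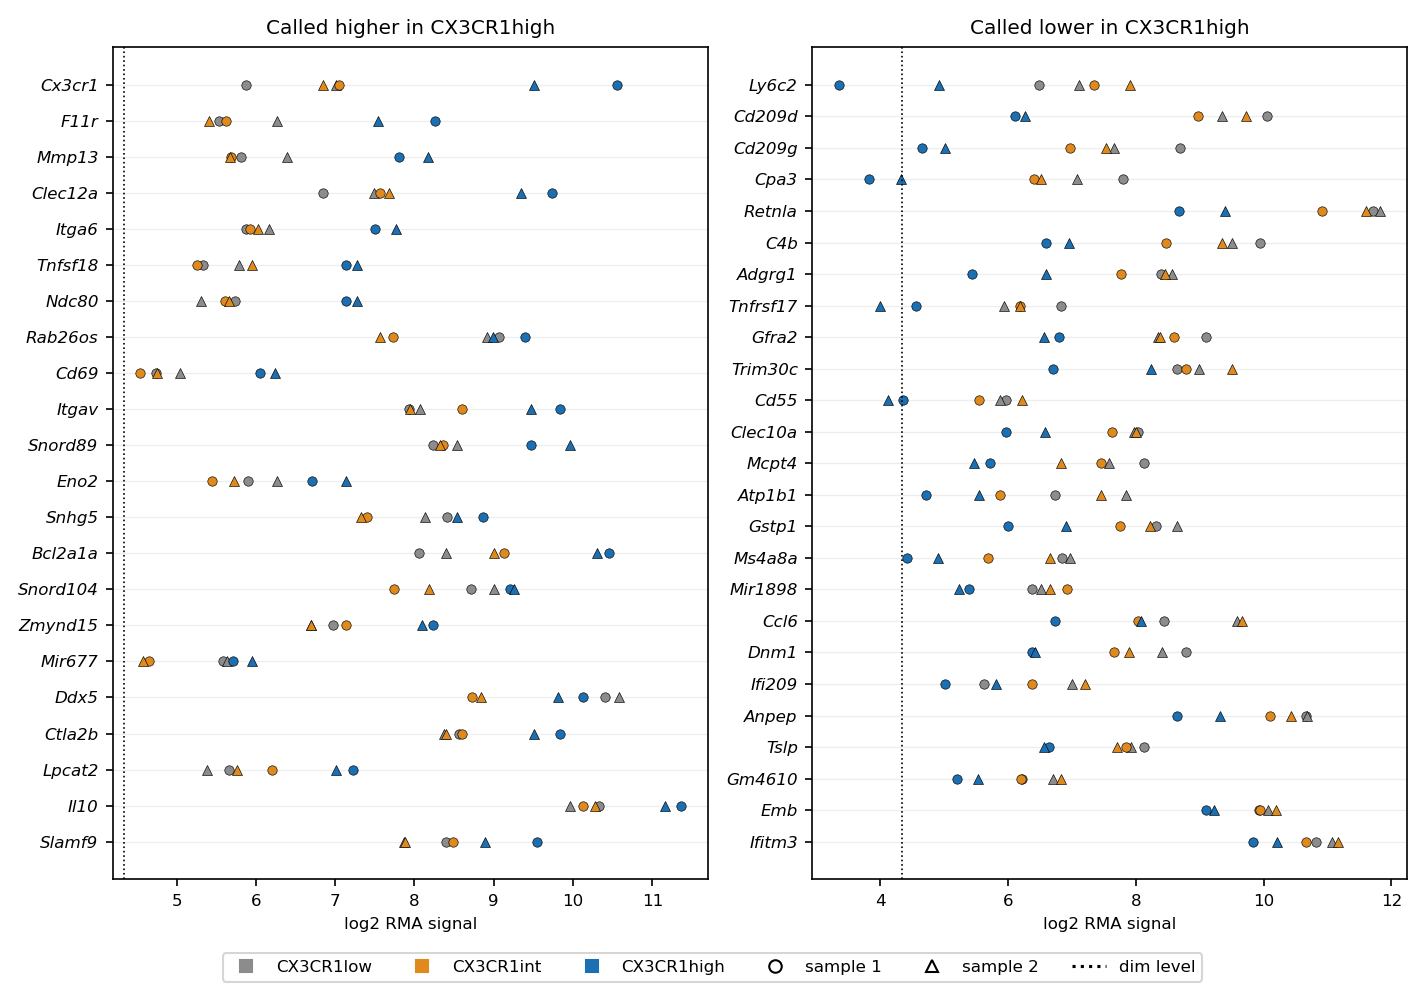
Log2 RMA signal (horizontal axis) of the 47 called genes in each of the 6 samples, with circles for the first and triangles for the second sample of a subset and the dotted line at the dim level of 4.34. For genes other than Ccl6, all blue CX3CR1high points lie on 1 side of the orange CX3CR1int points; the grey CX3CR1low points often lie near the orange ones.

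Among adhesion genes F11r, Itga6 and Itgav rose. F11r, which encodes the junctional adhesion molecule JAM-A, read 5.62 and 5.41 in CX3CR1int cells against 8.26 and 7.54 in CX3CR1high cells. Its rise of 2.39 (SE 0.30) was 5.22-fold (limma, adjusted p = 0.0254). Itga6, the integrin chain that with ITGB1 or ITGB4 binds laminin, read 5.93 and 6.03 against 7.5 and 7.77, a 3.15-fold rise (1.66, SE 0.18, adjusted p = 0.0193). Itgav, the alpha V chain of the receptors for vitronectin and latent TGF-beta, read 8.60 and 7.94 against 9.84 and 9.47, a 2.61-fold rise (1.39, SE 0.21, adjusted p = 0.0408). A second Itgav probe set differed by 1.07 in the same direction. In all 3 genes the CX3CR1high samples were the highest of the series.

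The partner chains of these integrins gave values and no call: Itgb1 differed by 0.21 (95% interval -0.14 to 0.55), Itgb4 by 0.06 (-0.33 to 0.45), Itgb3 by 0.06 (-0.33 to 0.45), Itgb8 by -0.04 (-0.48 to 0.40) and Itgb5 by 0.80 (0.28 to 1.31, adjusted p = 0.283). Of 27 tested integrin and adhesion genes, 3 were called higher and 0 lower, 17 differed upwards and 10 downwards, and the median was 0.14, against 0 over all genes. Over all genes tested 0.303% were called, 7733 differed upwards and 7659 downwards, which is the background for each list. Cd9, a tetraspanin, missed the threshold at 1.30 (adjusted p = 0.0537).

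The collagenase Mmp13, which cleaves fibrillar collagen, read 5.68 and 5.67 in CX3CR1int cells against 7.81 and 8.17 in CX3CR1high cells, a 4.98-fold rise (2.32, SE 0.20, limma, adjusted p = 0.00766). Both CX3CR1int values lay below those of every other sample, the CX3CR1low values of 5.81 and 6.39 included. Of 25 tested metalloproteases and other matrix proteases it was the 1 called, and the median was 0.05. Mmp14, which activates other metalloproteases at the membrane, differed by 1.21 (adjusted p = 0.0537) and Mmp12 read 6.22 and 6.47 against 7.35 and 8.01.

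The immune receptors Clec12a, Cd69 and Slamf9 rose. Clec12a, an inhibitory lectin that senses uric acid crystals of dead cells, read 7.56 and 7.68 against 9.74 and 9.34, a 3.78-fold rise (1.92, SE 0.24, limma, adjusted p = 0.0254). Cd69, an early activation antigen, read 4.54 and 4.75 against 6.05 and 6.24, a 2.83-fold rise (1.5, SE 0.17, adjusted p = 0.0202). Slamf9, a receptor of the SLAM family, read 8.49 and 7.88 against 9.55 and 8.89, a rise of 1.04 (SE 0.16, adjusted p = 0.0477). The CX3CR1int samples of Cd69 lay close to the dim level of 4.34, where a fold is understated.

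Il10, the anti-inflammatory cytokine, was bright in every sample, at 10.13 and 10.28 in CX3CR1int cells against 11.36 and 11.16 in CX3CR1high cells. The CX3CR1low samples at 10.33 and 9.96 lay near the CX3CR1int ones, and the rise over the upper step was 2.08-fold (1.06, SE 0.15, limma, adjusted p = 0.0346). Its receptor chains Il10ra and Il10rb differed by 0.39 (95% interval -0.07 to 0.84) and 0.54 (0.13 to 0.95, adjusted p = 0.364). Tnfsf18, the ligand of GITR, read 5.25 and 5.95 against 7.13 and 7.27, a 3.03-fold rise (1.60, SE 0.20, adjusted p = 0.0254). Its receptor Tnfrsf18 differed by 0.22 (-0.22 to 0.65). Of 23 tested TNF superfamily genes, Tnfsf18 was called higher and Tnfrsf17 lower (8.7%, against 0.303% of all genes). Of the 23, 16 differed upwards and 7 downwards, and the median was 0.22.

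Of 29 tested inflammatory cytokines and chemokines, Il10 was called higher and Ccl6 lower, and 20 differed upwards and 8 downwards. The median was 0.48 (0.61 in the first pair of samples and 0.33 in the second). Among the members that were not called, Il1b differed by 0.58 (adjusted p = 0.160), Cxcl10 by 0.84 (0.0905) and Ccl22 by 1.43 (0.120), Tnf by 0.46 (0.394), and Il6 by -0.05 (0.974). Their adjusted p-values were all above 0.05, so these are values and not calls. Ccl6 read 8.04 and 9.66 in CX3CR1int cells against 6.73 and 8.08 in CX3CR1high cells. It fell within each same-numbered pair, but the second CX3CR1high value exceeded the first CX3CR1int one. The difference of -1.45 (SE 0.18, limma, adjusted p = 0.0254) thus rests on the comparison within pairs. Its close relative Ccl9 differed by 0 (95% interval -0.35 to 0.35).

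The other rises were of mixed function. Bcl2a1a, a survival gene of the BCL2 family, read 9.13 and 9.0 against 10.46 and 10.30 (1.32, adjusted p = 0.0255); near-identical copies of this gene share sequence, so the copy is uncertain. Ndc80, a kinetochore protein, read 5.61 and 5.66 against 7.14 and 7.27 (1.57, adjusted p = 0.0254). Lpcat2, which makes platelet-activating factor, read 6.20 and 5.76 against 7.23 and 7.01 (1.14, adjusted p = 0.0486). Each of the 3 was higher in both CX3CR1high samples than in any other. Eno2, a glycolytic enolase, read 5.44 and 5.72 against 6.71 and 7.14 (1.35, adjusted p = 0.0254), Zmynd15, a zinc finger gene, 7.13 and 6.69 against 8.24 and 8.09 (1.26, adjusted p = 0.0340), and Ctla2b, a gene with a near copy in Ctla2a, 8.60 and 8.40 against 9.83 and 9.51 (1.17, adjusted p = 0.0255), all by limma. Ctla2a itself differed by 1.03, without a call.

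Ndc80 was the 1 called of 31 tested cell cycle genes. Of these, 30 differed upwards and 1 downwards, with a median of 0.27 beside 0 for all genes. That median was -0.06 in the first pair of samples and 0.62 in the second. Mki67, the proliferation antigen, differed by 0.28 (adjusted p = 0.753), Top2a, a topoisomerase of dividing cells, by 0.51 (0.641) and Cdk1, the mitotic kinase, by 0.79 (0.364). The upward count over the pooled samples was therefore not seen as a median shift in both pairs.

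The greatest fall was that of Ly6c2, the LY6C antigen of inflammatory monocytes. It read 7.35 and 7.90 in CX3CR1int cells against 3.36 and 4.92 in CX3CR1high cells, whose mean was below the dim level. The CX3CR1low samples, at 6.48 and 7.11, lay between them, and CX3CR1int and CX3CR1low samples did not overlap. The difference of -3.49 (SE 0.26, limma, adjusted p = 0.00333) corresponds to at least 9.78-fold against the dim level. Leaving out 1 array gave differences from -3.97 to -3.0. Ly6c2 has near-identical relatives, so part of its signal may be theirs.

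The other monocyte genes did not follow as calls. Of 16 tested, Ly6c2 was the 1 called, 7 differed upwards and 8 downwards, and the median was -0.02. Ccr2, the receptor that brings monocytes into tissue, read 6.99 and 7.05 in CX3CR1int cells against 7.92 and 7.26 in CX3CR1high cells, a difference of 0.57 with a wide interval (-0.40 to 1.54, adjusted p = 0.749). Without the first CX3CR1high sample it was -0.17. Vcan, a proteoglycan of monocytes, differed by -1.41 (adjusted p = 0.232), Gda, a guanine deaminase, by -1.23 (0.0771) and Plac8 by -0.93 (0.408).

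The lectins Cd209d, Cd209g and Clec10a, known from resident macrophages around vessels, fell. Cd209d, a mouse relative of the lectin DC-SIGN, read 8.97 and 9.73 in CX3CR1int cells against 6.11 and 6.26 in CX3CR1high cells, an 8.97-fold fall (-3.17, SE 0.30, limma, adjusted p = 0.0102). Cd209g of the same cluster read 6.97 and 7.53 against 4.66 and 5.02, a 5.31-fold fall (-2.41, SE 0.34, adjusted p = 0.0337). Clec10a, the galactose lectin, read 7.63 and 8.0 against 5.96 and 6.58 (-1.55, SE 0.21, adjusted p = 0.0261). For Cd209d and Cd209g the CX3CR1low samples were also above the CX3CR1high ones, at 10.05 and 9.35 and at 8.69 and 7.66.

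The members of the CD209 cluster did not move as 1 group: Cd209b differed by -1.43 (adjusted p = 0.0979) and Cd209e by -0.71, while Cd209a differed by 0.13 and Cd209c by -0.08, none of these called. The copies are alike in sequence and their probe sets may share signal. Of 22 tested C-type lectin receptors, 3 were called lower and 1 (Clec12a) higher, 18.2% against 0.303% of all genes. Of the 22, 8 differed upwards and 14 downwards, and the median was -0.26. Cd207, langerin of Langerhans cells, read 6.00 and 6.85 against 7.57 and 8.07 (1.4, adjusted p = 0.0814), while 0 of 9 tested Langerhans cell markers were called and their median was -0.14. Of 22 tested genes of perivascular-type residents, Cd209d, Cd209g and Clec10a were the 3 called (13.6%, against 0.303% of all genes), all lower. Of the 22, 2 differed upwards and 20 downwards, with a median of -0.51 (-0.48 in the first pair of samples, -0.49 in the second). Lyve1, the hyaluronan receptor, differed by -0.07 (95% interval -0.42 to 0.29) and Mrc1, the mannose receptor, by -0.11 (-0.36 to 0.15). These lists were chosen with earlier results in view.

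Retnla, a secreted protein induced by interleukin 4 in alternatively activated macrophages, read 10.92 and 11.60 against 8.68 and 9.40. This 4.66-fold fall (-2.22, SE 0.17, limma, adjusted p = 0.00333) kept the CX3CR1high samples apart from all others, and leaving out 1 array gave -2.38 to -2.06. Of 18 tested alternative activation genes, Retnla and Clec10a were called (11.1%, against 0.303% of all genes), both lower, and the median was -0.06. Mgl2, the lectin next to Clec10a in family, differed by -1.07 (adjusted p = 0.0537).

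Complement genes gave 2 falls. C4b, a component of the classical pathway, read 8.47 and 9.35 against 6.59 and 6.95, a 4.41-fold fall (-2.14, SE 0.27, limma, adjusted p = 0.0254). Cd55, which speeds the decay of complement convertases, read 5.55 and 6.21 against 4.35 and 4.12, at least 2.92-fold lower (-1.65, SE 0.23, adjusted p = 0.0340). Of 17 tested, 2 were called lower and 0 higher (11.8%, against 0.303% of all genes), and the median was -0.27. Cfb, factor B of the alternative pathway, differed by -1.49 (adjusted p = 0.103), Cfp, properdin, by -1.04 (0.0616) and C1qa, a chain of C1q, by 0.29 (0.822).

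Gfra2, the neurturin receptor that signals with RET, read 8.59 and 8.37 against 6.80 and 6.56. The 3.48-fold fall (-1.80, SE 0.20, limma, adjusted p = 0.0193) ranged from -1.94 to -1.66 when 1 array was left out. Ret and Nrtn, its signalling partner and its ligand, differed by 0.06 (95% interval -0.49 to 0.61) and 0.27 (-0.15 to 0.68). Adgrg1, an adhesion receptor for collagen and other ligands, read 7.77 and 8.46 against 5.43 and 6.6, a 4.29-fold fall (-2.10, SE 0.24, adjusted p = 0.0202). Of 28 tested neurotrophic and axon guidance genes Gfra2 was the 1 called, and the median was 0.05.

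P2ry12 and Tmem119, known from microglia, gave intervals around 0: P2ry12 differed by -0.06 (95% interval -0.44 to 0.32) and Tmem119 by 0.41 (-0.03 to 0.84). Of 18 tested genes known from microglia or nerve-associated macrophages, 9 differed upwards and 9 downwards, and Cx3cr1 was the 1 called. Tgfbr1, a receptor for TGF-beta, read 7.20 and 7.21 against 8.45 and 7.84 (0.94, limma, adjusted p = 0.148).

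Genes known from other cell types were among the falls. Cpa3, carboxypeptidase A of mast cells, read 6.41 and 6.51 against 3.82 and 4.32, below the dim level in CX3CR1high cells, at least 4.36-fold lower (-2.39, SE 0.27, limma, adjusted p = 0.0202). Mcpt4, a mast cell chymase, read 7.45 and 6.83 against 5.72 and 5.47 (-1.55, SE 0.19, adjusted p = 0.0254). Tnfrsf17, the BCMA receptor of plasma cells, read 6.18 and 6.19 against 4.56 and 4.00, at least 3.61-fold lower (-1.91, SE 0.23, adjusted p = 0.0254). Tslp, a cytokine of epithelial cells, read 7.85 and 7.70 against 6.64 and 6.56 (-1.18, SE 0.17, adjusted p = 0.0363).

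Of the 14 mast cell markers 7 were dim, among them Fcer1a and Ms4a2. All 7 tested markers differed downwards, 2 of them called (28.6%, against 0.303% of all genes), with a median of -0.49. Cma1, a further mast cell chymase, differed by -1.05 (limma, adjusted p = 0.0967) and Kit by -0.485 (0.395), neither of them called. On the linear scale their summed signal was 434 and 399 in CX3CR1int cells against 204 and 191 in CX3CR1high cells, beside 755 and 558 in CX3CR1low samples. Among 7 tested B and plasma cell markers 1 was called, 4 differed upwards and 3 downwards, with a median of 0.02. Their summed signal was 1027 and 1072 against 726 and 729, beside 1185 and 1023 in CX3CR1low samples, and Cd79a and Ms4a1 were dim. Keratinocyte markers summed to 2046 and 2424 against 1795 and 2105, beside 2954 and 5190 in CX3CR1low samples. Of 19 tested, 0 were called, with a median of -0.14. For fibroblast markers the sums were 3214 and 3202 against 2414 and 2316, beside 3888 and 6196 in CX3CR1low samples. Of 16 tested, 0 were called, with a median of -0.32. The part of these markers in the falls of Cpa3, Mcpt4, Tnfrsf17 and Tslp, or of any other gene, was not tested.

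**Figure D3:**
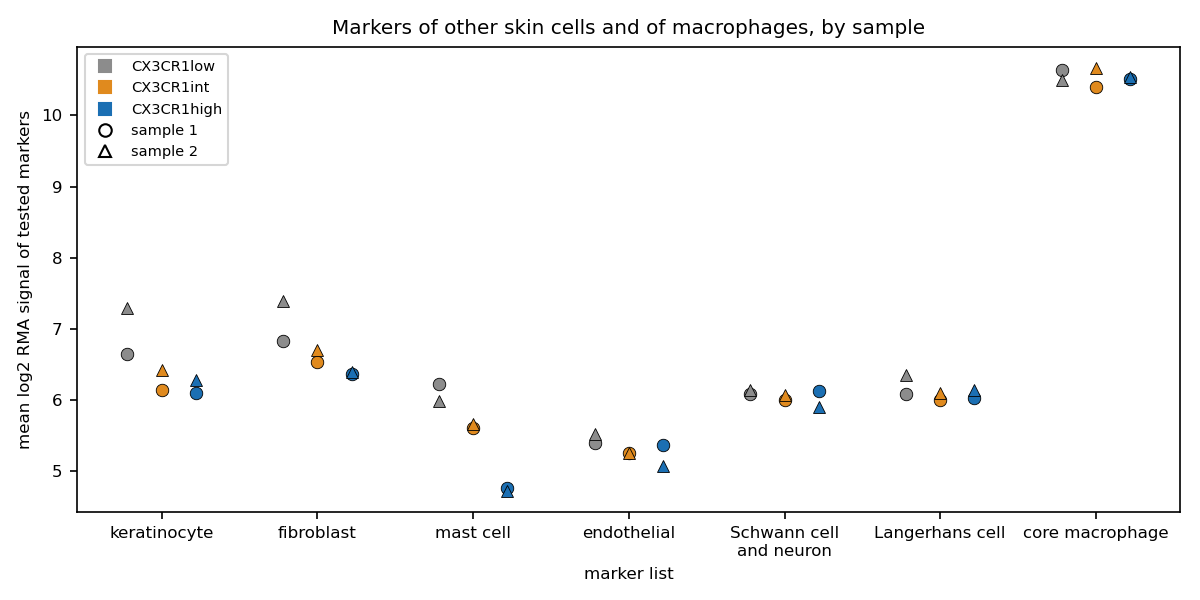
Mean log2 RMA signal (vertical axis) of the tested genes of 7 marker lists in each sample, coloured by subset, with circles for the first and triangles for the second sample. Core macrophage markers lie above 10 in all 6 samples, whereas mast cell markers fall from CX3CR1low through CX3CR1int to CX3CR1high and lie lowest there.

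The interferon-related genes Ifitm3, Ifi209 and Trim30c fell. Ifitm3, which restricts viral entry, read 10.67 and 11.16 against 9.84 and 10.21, a 1.85-fold fall (-0.89, SE 0.13, limma, adjusted p = 0.0343). Ifi209, a member of the IFI200 family of DNA sensors, read 6.38 and 7.21 against 5.02 and 5.81 (-1.38, adjusted p = 0.0389), and Trim30c of the TRIM30 cluster 8.79 and 9.51 against 6.70 and 8.24 (-1.68, adjusted p = 0.0477). All 3 have close relatives, and none of those given here was called. Ifitm1 differed by 1.11, Ifitm2 by -0.31 and Ifitm6 by -0.99. Ifi204 differed by -0.88, Ifi205 by 0.36 and Ifi207 by -0.05. Trim30a differed by -0.53, Trim30b by 0.06 and Trim30d by -0.30. Of 20 tested interferon response genes, 1 was called lower and 0 higher, 16 differed downwards and 4 upwards, and the median was -0.26. Isg15, a ubiquitin-like interferon target, differed by 0.27 and Irf7, a transcription factor of interferon induction, by -0.52.

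The remaining falls were spread over functions. Anpep, an aminopeptidase at the cell surface, read 10.10 and 10.43 against 8.65 and 9.31 (-1.29, limma, adjusted p = 0.0261). Atp1b1, a sodium pump subunit, read 5.87 and 7.46 against 4.71 and 5.54 (-1.54, adjusted p = 0.0337). Gstp1, a glutathione transferase with a near copy, read 7.75 and 8.22 against 6.00 and 6.91 (-1.53, adjusted p = 0.0254). In each the CX3CR1high samples were the lowest of the 6. Ms4a8a, a 4-pass membrane protein of the MS4A family, fell by 1.52 (adjusted p = 0.0389), Dnm1, a dynamin of endocytosis, by 1.38 (0.0353), the predicted gene Gm4610 by 1.15 (0.0499) and Emb, the adhesion protein embigin, by 0.91 (0.0464), with a second Emb probe set at -0.10.

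**Figure D4:**
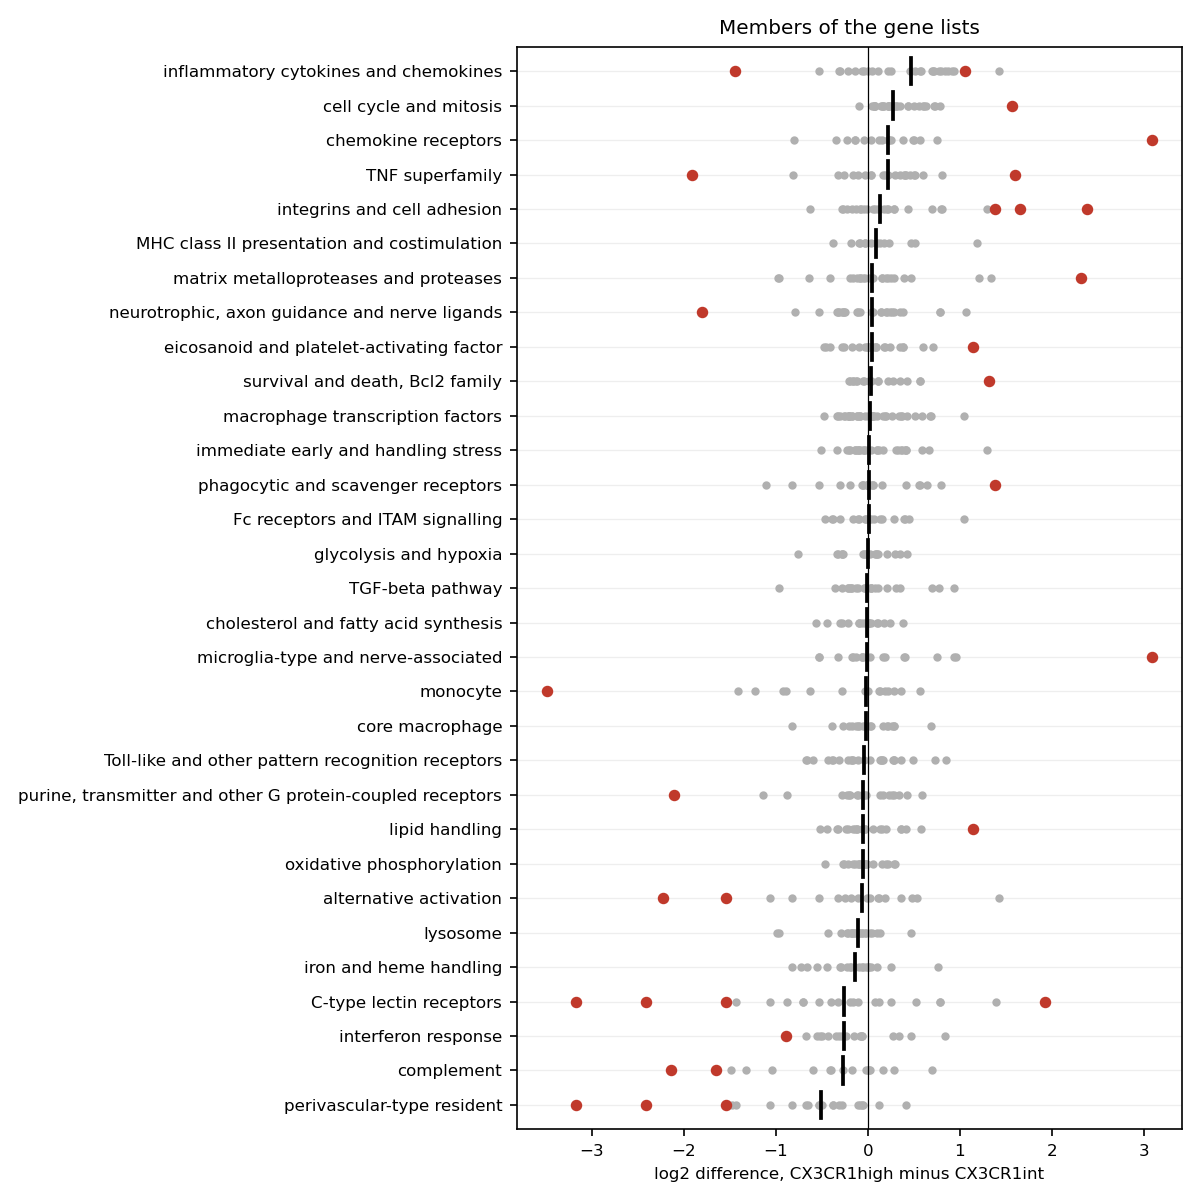
Log2 difference (CX3CR1high minus CX3CR1int, horizontal axis) of each tested member of 31 gene lists, 1 list per line, with called genes in red and the list's median as a black bar. The medians run from -0.51 for perivascular-type residents to 0.48 for inflammatory cytokines and chemokines.

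Several groups held no call. All 20 tested genes of oxidative phosphorylation had intervals within 1 log2 unit of 0, as did 14 of 15 genes of MHC class II presentation and costimulation, whose exception Icosl, the ligand of ICOS, read 6.97 and 6.28 against 8.19 and 7.44 (1.19, limma, adjusted p = 0.0537). H2-Aa, a class II chain, differed by 0.10 (-0.33 to 0.53). Of 23 lysosomal genes 5 differed upwards and 18 downwards, with a median of -0.11. No call was made among 39 macrophage transcription factors, where Bhlhe40, a repressor of the bHLH family, differed by 1.05 (adjusted p = 0.0771).

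The upper step was set against the lower step, CX3CR1int minus CX3CR1low, by the contrast of the differences; both steps share the CX3CR1int samples. From CX3CR1low to CX3CR1int 0 genes were called by limma (0% of those tested), with 944 at an unadjusted p below 0.05 (6.08%). For 46 of the 47 genes called in the upper step the difference there was larger in size than in the lower step, the exception being Ddx5. This holds in part by choice, since the genes were called on the upper step. The contrast itself called 3 genes, 0.0193% of those tested: Ddx5 and Rab26os with the higher upper step (0.0129%) and Ly6c2 with the lower one (0.00644%). Between CX3CR1high and CX3CR1low, 154 genes were called (0.992%; 76 higher, 0.489%, and 78 lower, 0.502%), 39 of the 47 among them; that comparison shares the CX3CR1high samples.

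Ddx5, an RNA helicase that unwinds structured transcripts, read 10.41 and 10.58 in the CX3CR1low samples. In CX3CR1int cells it read 8.72 and 8.84, and in CX3CR1high cells 10.12 and 9.81. It was thus lowest in the middle subset, with a rise of 1.19 (SE 0.16, limma, adjusted p = 0.0309) over the upper step and a lower step of -1.72. Rab26os, a non-coding RNA antisense to Rab26, read 9.07 and 8.91, then 7.73 and 7.57, then 9.39 and 8.99, a rise of 1.54 (SE 0.16, adjusted p = 0.0193). The steps differed by 2.90 for Ddx5 and 2.88 for Rab26os, and by -4.32 for Ly6c2, each with an adjusted p of 0.0308. These 3 calls were lost, with 0 genes called, without the block, without the dim filter, without an intensity trend, after renewed quantile normalization and with any 1 array left out. Rab26 differed by -0.22 (95% interval -0.68 to 0.25) over the upper step. The array's ability to tell the strands of Rab26 and Rab26os apart was not tested.

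**Figure D5:**
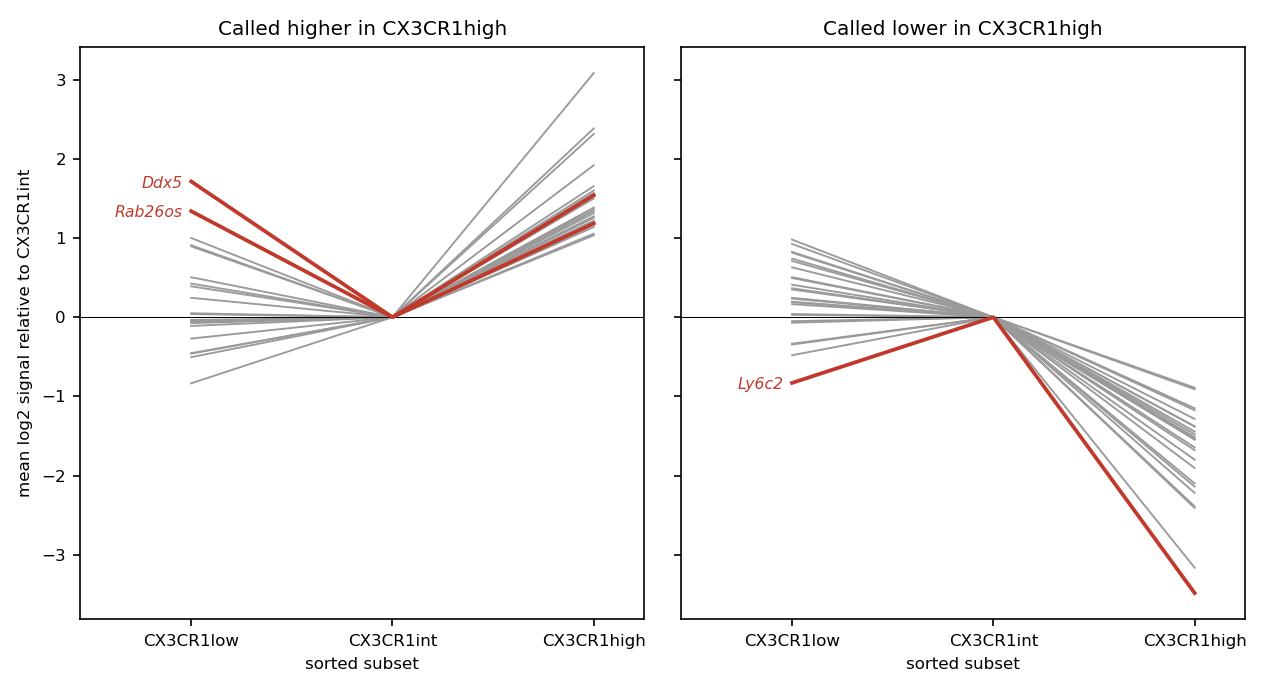
Mean log2 RMA signal relative to CX3CR1int (vertical axis) of the 22 genes called higher (left) and the 25 called lower (right) in the 3 sorted subsets (horizontal axis), 1 line per gene. The 3 genes whose steps differed by test in the fit over all 6 samples with the block, a call lost with any 1 array left out, are red: Ddx5 and Rab26os dip in CX3CR1int, and Ly6c2 is highest there.

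For 7 called genes both CX3CR1int samples lay below all 4 other samples: Mmp13, Rab26os, Snhg5, Eno2, Snord104, Ddx5 and Mir677. Rab26os, Snhg5, Snord104 and Mir677 among them are non-coding. All 7 were called as rises from CX3CR1int, so their low CX3CR1int values hold in part by choice. The share of all tested genes with this separation was not counted. Snhg5, a host gene of small nucleolar RNAs, read 8.41 and 8.13, 7.40 and 7.32, and 8.87 and 8.54 over the 3 subsets, a rise of 1.35 (SE 0.17, limma, adjusted p = 0.0254). Snord104, which guides methylation of ribosomal RNA, read 8.71 and 9.0, 7.74 and 8.18, and 9.21 and 9.26 (1.28, SE 0.17, adjusted p = 0.0255). Snord89 read 8.36 and 8.32 in CX3CR1int cells against 9.47 and 9.96 in CX3CR1high cells (1.38, SE 0.18, adjusted p = 0.0254), beside 8.24 and 8.54 in CX3CR1low ones.

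Of 60 small nucleolar RNA genes tested, these 2 were called, beside 0.303% of all genes, and 48 differed upwards and 12 downwards. The median was 0.45 (0.25 in the first pair of samples and 0.56 in the second). The median of the lower step was -0.30, and the CX3CR1int mean lay below both others in 66.7% of them, against 29.4% of protein-coding genes. Small RNA genes of all classes made up 8.51% of the called genes and 1.57% of those tested. These were 4 called genes, 3 higher and 1 lower, with the microRNA genes Mir677 and Mir1898 among them. The microRNA genes did not share the pattern: their median was 0.04, and CX3CR1int lay below both others in 32.4%. The host genes Snhg1 and Snhg12 differed by 0.84 (adjusted p = 0.169) and 0.96 (0.0771), and Ddx17, the closest relative of Ddx5, by 0.50 (0.376). RNA quality of the samples is not given in the sources used here, and its part in this was not tested.

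The samples correlated at 0.974 to 0.977 within a subset and at 0.960 to 0.978 between subsets. The CX3CR1high samples correlated best with each other, at 0.977, whereas CX3CR1low and CX3CR1int samples correlated as well across as within their subsets in several pairs. Array medians lay between 4.84 and 4.94. Sex-linked transcripts split the samples by replicate number and not by subset. Xist, transcribed from the inactive X, read 7.61 and 7.97 in the first CX3CR1int and CX3CR1high samples and 10.99 and 11.39 in the second, and the Y-linked Eif2s3y read 7.86 and 7.76 against 3.72 and 3.57. The difference between the subsets was 0.38 for Xist (adjusted p = 0.530) and -0.13 for Eif2s3y (0.938). The block takes up what same-numbered samples share.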

How the data were processed

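The submitters' processing notes name RMA and Affymetrix Expression Console 1.4, and the deposited values are log2 signals. RMA subtracts background, normalizes quantiles and summarises probes, so arrays share 1 distribution and a shift of all genes cannot be seen. Of 34390 probe sets 23521 have exactly 1 gene symbol in the platform annotation, 1814 have several and 9055 none; the brightest stood for a gene. No column of values was left unused (0).

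Genes with a mean below the 30th percentile were left out, without regard to subset. limma 3.58.1 in R 4.3.3 fitted a mean per subset and the replicate number as a block over 6 samples, with an intensity trend and Benjamini-Hochberg adjustment over 15529 genes; calls were two-sided at adjusted p below 0.05. The median SE of a difference was 0.186, and the number of arrays limits the precision. Same-numbered samples deviated together weakly, with correlations of deviations of 0.146, 0.136 and 0.178 for the 3 pairs of subsets. Without sex-linked genes these were 0.123, 0.113 and 0.158. Same-numbered samples shared their levels of sex-linked transcripts, as given above. What else they have in common was not tested. The design text names 2 independent litters, without tying numbers to them.

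Members and gene lists were chosen with earlier results of these data known. The naming rule took 12 rises and 12 falls, by size, from called genes whose subsets did not overlap (clone, microRNA and small nucleolar RNA symbols passed over), of each list the called members or up to 3 of smallest p, a fixed set of marker genes, and genes called between steps; all other called genes, the list members given as contrasts, partner chains and relatives were added after their values were seen. Scripts were tested on simulated data. Alternatives were no block, 4 samples, other dim filters, mean probe sets, every probe set, other variance priors, renewed quantile normalization, median centring, another threshold and leaving out each sample. Motifs were searched in RefSeq windows of 250 bases.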

Additional observations from a re-analysis of the deposited data

Results flagged for a closer look

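The upper step of the CX3CR1 range (CX3CR1high minus CX3CR1int) differed from the lower step (CX3CR1int minus CX3CR1low) for 3 genes by limma's test of the difference of the steps. The upper minus the lower step was 2.90 for Ddx5, -4.32 for Ly6c2 and 2.88 for Rab26os, each with a Benjamini-Hochberg adjusted p of 0.0308. Ddx5 and Rab26os were lowest and Ly6c2 highest in the CX3CR1int samples, which both steps share. No gene passed this test when any 1 array was left out, without the block, without the dim filter, without an intensity trend or after renewed quantile normalization.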

How the results depend on the processing

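All 47 called genes kept their direction under every alternative in which they were fitted, but the number of calls did not hold. Without the replicate block 22 genes were called (12 higher, 10 lower) and the steps differed for 0. With only the 4 CX3CR1high and CX3CR1int samples 0 were called (0 higher, 0 lower), with Cx3cr1 at 3.09 and an adjusted p of 0.0621. Without the dim filter 25 were called (13 higher, 12 lower), the steps differed for 0 and Cx3cr1, at 3.09, had an adjusted p of 0.0546; above the 50th percentile 65 were called (34 higher, 31 lower). The steps differed for 0 genes without an intensity trend and after renewed quantile normalization. Testing every probe set on its own called 2 (0 higher, 2 lower), and an adjusted p below 0.1 called 112 (57 higher, 55 lower). Leaving out each array gave 0 to 0 calls in each direction and between the steps, and Cx3cr1 from 2.33 to 3.84 (adjusted p 0.0628 to 0.678); the residual degrees of freedom fall to 1 there. Without the block, an alternative chosen after seeing the data, leaving out each array gave 0 to 17 calls, 0 to 11 higher and 0 to 6 lower. Calls were 17 without either CX3CR1low sample, 0 and 1 without the first and the second CX3CR1int sample, and 0 and 2 without the first and the second CX3CR1high sample.

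Some differences turned sign, most of them near 0, with those of Ccr2 and Kdm5d further from it. Slc4a1, an erythroid gene, was at -0.034 after renewed quantile normalization. Leaving out each array in turn gave -0.24 to 0.25 for Slc4a1, -0.19 to 0.058 for Lyve1, -0.23 to 0.43 for H2-Aa, -0.23 to 0.12 for Mertk, -0.42 to 0.17 for Eif2s3y, -0.76 to 0.093 for Kdm5d, -0.22 to 0.013 for Mrc1, -0.17 to 1.31 for Ccr2 and -0.20 to 0.075 for P2ry12. The cause was not tested.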

Other observations

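Beyond the called genes, 65 had an adjusted p from 0.05 to 0.1 (limma, Benjamini-Hochberg), 35 higher and 30 lower in CX3CR1high cells, and 21 of them stood on a gene list; these are values and not calls. Hpse, the heparanase that cleaves heparan sulphate, read 8.55 and 8.41 in CX3CR1int cells against 4.85 and 6.85 in CX3CR1high cells, a difference of -2.63 (adjusted p = 0.0823). Its CX3CR1high samples differed widely from each other. A4galt, a glycosyltransferase of globosides, read 7.10 and 7.41 against 5.02 and 6.07 (-1.71, adjusted p = 0.0537). Acp5, the tartrate-resistant acid phosphatase, read 6.93 and 7.27 against 8.17 and 8.24 (1.10, adjusted p = 0.0586). Havcr2, the checkpoint receptor TIM-3, read 6.85 and 6.93 against 7.95 and 7.85 (1.01, adjusted p = 0.0697). Pltp, the phospholipid transfer protein, read 10.91 and 10.91 against 10.21 and 10.21 (-0.70, adjusted p = 0.0771). In these 5 genes, chosen after their values were seen, the subsets did not overlap, which was also so in 36.8% of all genes tested.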
